A study of Homo sapiens with 60 samples.

Results

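The genes described here are 8 that mark epithelial cells: the keratins KRT8, KRT18 and KRT19, the adhesion genes EPCAM, CDH1 and CLDN7, the brush-border gene VIL1, and CEACAM5, which encodes carcinoembryonic antigen. They were chosen by symbol from the 29744 genes of the count table. The filter on low counts kept 6 of the 8, which were tested among 11298 genes, while VIL1 and CEACAM5 were at or near 0 and were not kept. The RNA came from HCT116 spheroids, HCT116 being an epithelial cell line from a human colorectal carcinoma, and was read in 60 libraries that form 12 groups of 5. All spheroids grew in agarose wells in serum-containing high-glucose medium, and exposures ran from day 1 to day 8 after seeding. In Medium 1 and in Medium 2, as the labels name the media, spheroids were left untreated or received 0.1 µM hemin, or 1 µM of butyrate, kynurenine or kynurenic acid, or hemin with kynurenine. The series design says that spheroids were taken either at once or after 3 h in medium poor in nutrients, but no label used here says which medium is which, so the names Medium 1 and Medium 2 are kept. Gut bacteria make butyrate, a short-chain fatty acid, by fermenting fibre. Hemin, the oxidised form of heme, reaches the gut with red meat, and kynurenine and kynurenic acid are formed from tryptophan.

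Keratins are the intermediate filaments of epithelial cells and are built from obligate pairs of a type II and a type I chain. KRT8 is the type II chain of simple epithelia, KRT18 is its usual type I partner, and KRT19 is a further type I chain that also pairs with KRT8. CDH1, or E-cadherin, joins neighbouring cells at adherens junctions, CLDN7 is a claudin that is found at tight junctions and on the lateral membrane, and EPCAM is a surface glycoprotein that binds CLDN7. VIL1, or villin, bundles actin in the microvilli of differentiated enterocytes, and CEACAM5 is an adhesion molecule of the gut epithelium used as a tumour marker. These genes are widely used to tell carcinoma cells from stroma and to follow loss of epithelial traits, during which repressors such as SNAI1 and ZEB1 bind the E-box CACCTG in the CDH1 promoter.

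Upstream sequences were available for 3 of the 8 genes in the RefSeq promoter table (KRT8, CLDN7 and CEACAM5). A pair of them is shown because CLDN7 was read in every library and CEACAM5 in almost none. Each stretch holds the 250 bases before an annotated start on GRCh38.p14, written 5′ to 3′ on the gene's strand, with CACCTG or its reverse complement CAGGTG in capitals. The CLDN7 stretch is chr17:7262479-7262728 on the minus strand and lies inside the gene's annotated span, since another start lies farther upstream at 7263213. The CEACAM5 stretch is chr19:41708376-41708625 on the plus strand.
CLDN7: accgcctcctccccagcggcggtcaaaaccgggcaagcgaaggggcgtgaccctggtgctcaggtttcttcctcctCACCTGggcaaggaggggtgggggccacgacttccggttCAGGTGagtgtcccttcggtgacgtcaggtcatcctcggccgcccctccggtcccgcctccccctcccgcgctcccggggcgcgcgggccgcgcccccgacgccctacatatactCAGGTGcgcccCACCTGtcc
CEACAM5: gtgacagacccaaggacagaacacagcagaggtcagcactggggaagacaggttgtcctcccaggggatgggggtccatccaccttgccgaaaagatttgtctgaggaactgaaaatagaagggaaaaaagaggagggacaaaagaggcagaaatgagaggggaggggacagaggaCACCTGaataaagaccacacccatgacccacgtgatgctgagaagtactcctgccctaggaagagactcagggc

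The CLDN7 stretch holds the E-box letters 4 times and the CEACAM5 stretch once. In windows that reach 50 bases past the start, the CLDN7 start had 5 matches on either strand, the other CLDN7 start and the KRT8 window had none, and 20.6% of 35116 RefSeq promoter windows of that length had at least 1. The KRT8 window, chr12:52926420-52926719 on the minus strand, lies inside that gene's annotated span, and no other KRT8 start was searched. The GC box GGGCGG was found 2 times at this CLDN7 start and in 45% of all windows. Neither the TATA motif TATAAA, which 11.5% of windows hold, nor the AP-1 motif TGANTCA, which 7.71% hold, was found in the 4 windows of the 3 genes. These matches describe letters only, and no binding was measured.

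The counts come from 3' ends with molecular identifiers, so that a molecule is counted once whatever its length, and CPM below means counts per 1000000 after TMM scaling of libraries. Libraries held between 1346147 and 3083249 counts, and the median total was 1901981. Libraries carry the name of their plate well, and Medium 1 filled wells A1 to F4 while Medium 2 filled wells G4 to D8, so that medium and plate position cannot be told apart. Within a medium the 5 libraries of each group also filled consecutive wells, so exposure and plate position cannot be told apart either. The labels call the 5 samples of a group biological replicates, but no source used here says that they were separate cultures, and the p-values then measure only how far these samples spread. An adjusted p below is that of edgeR's quasi-likelihood F-test, adjusted by Benjamini and Hochberg's method over all 11298 tested genes, unless another test is named, and a gene is called when it is under 0.05. Butyrate well B2 of Medium 1 and kynurenine well A7 of Medium 2 stood apart from their groups in an earlier analysis of these data, and each edgeR result was also computed without both. In bulk RNA, fewer cells that express a gene and less RNA per cell cannot be told apart.

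The 6 measured genes were read in all 60 libraries and formed 3 tiers by level. EPCAM averaged 372 ± 35.1 CPM (SD, n = 60) and KRT19 363 ± 63.6 CPM, which placed them at ranks 432 and 444 of the 11298 tested genes by mean level. KRT18 averaged 248 ± 40.4 CPM and KRT8 235 ± 37.4 CPM, at ranks 728 and 779. CLDN7 averaged 102 ± 23.6 CPM and CDH1 67.9 ± 17.5 CPM, at ranks 2069 and 3092. Within each tier the difference of the means was smaller than the SD over libraries for EPCAM with KRT19 and for KRT18 with KRT8, whereas CLDN7 and CDH1 differed by more than either SD. EPCAM varied least, with an SD of 9.43% of its mean, and CDH1 most, with 25.8%. The largest ratio between the highest and lowest of the 12 group means was 1.72 for CDH1, from 51.1 ± 14.7 CPM with butyrate in Medium 1 to 87.9 ± 10.3 CPM in untreated spheroids of Medium 2 (SD, n = 5 each), and the smallest was 1.22 for EPCAM.

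**Figure D1:**
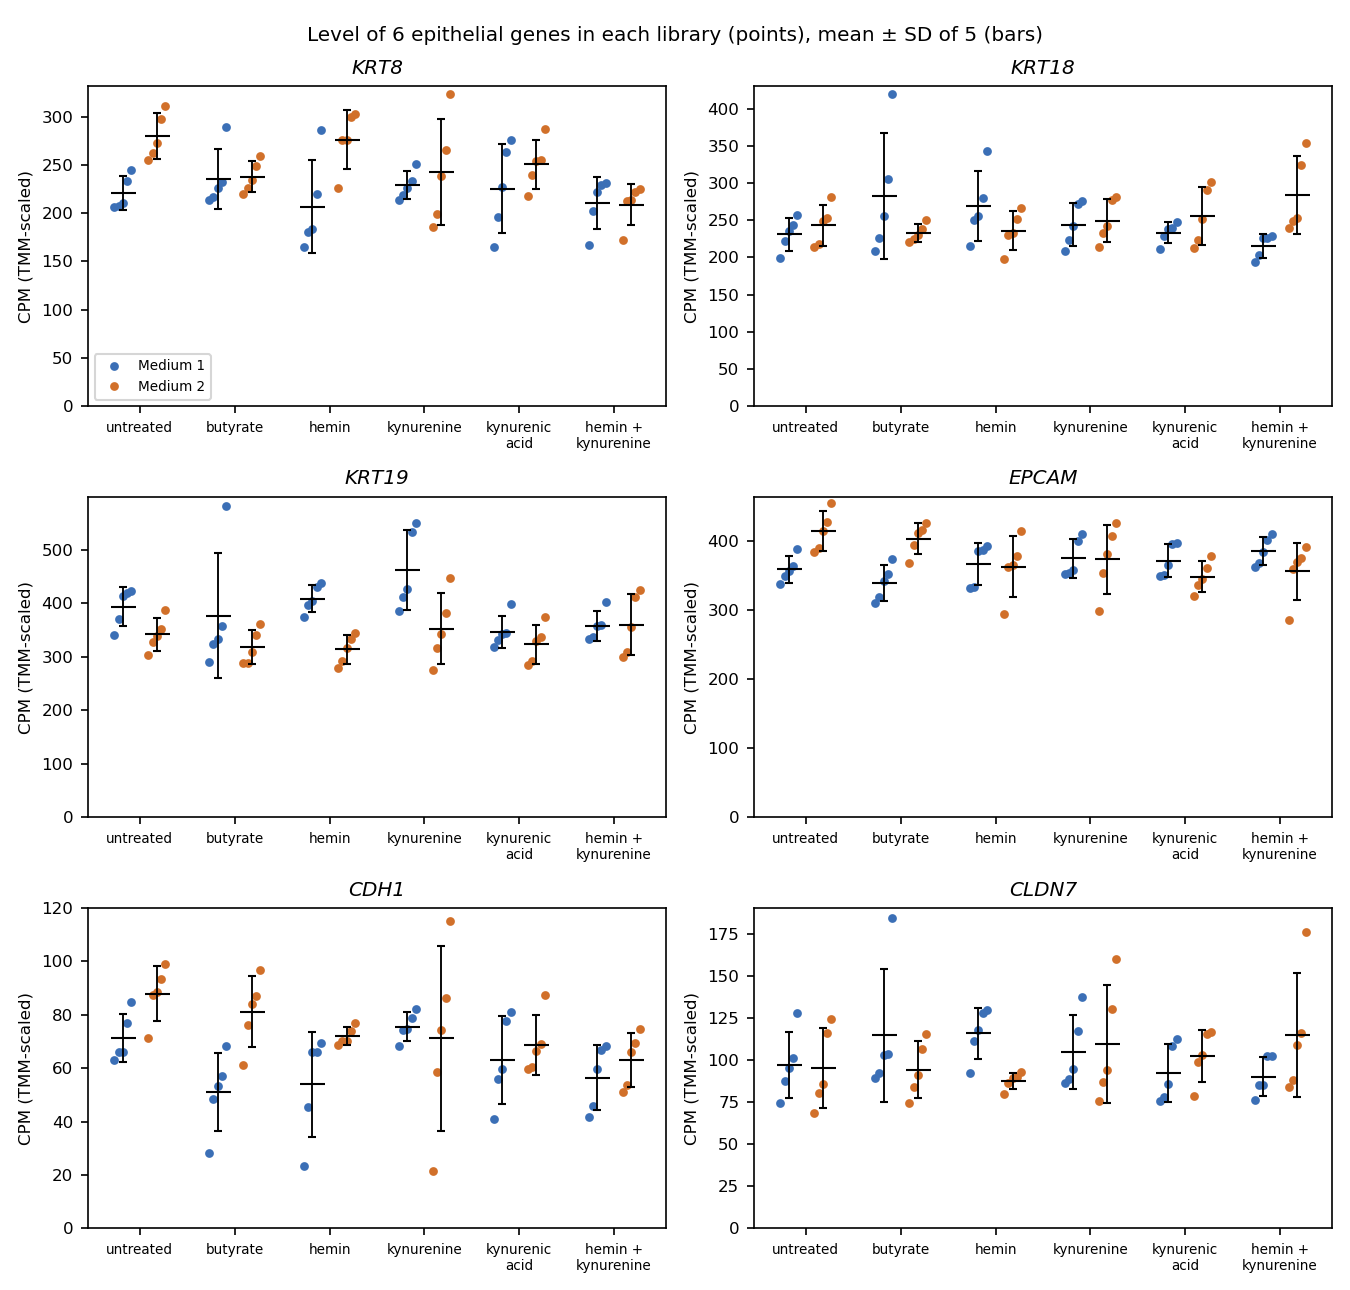
Each panel plots the level of 1 gene in CPM on the vertical axis, from 0, against the 6 treatments on the horizontal axis, with blue points for the 5 Medium 1 libraries and orange points for the 5 Medium 2 libraries of each treatment, and black bars for the mean ± SD. The groups of most treatments overlap, untreated KRT8 is a case where they do not, and 1 butyrate library of Medium 1 stands at 582 CPM for KRT19.

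VIL1 was at 0 in all 60 libraries, against 117201108 counts in all, which allows a level of up to 0.0256 CPM over all libraries together at 3 counts. CEACAM5 had 6 counts in 5 libraries, of which 2 were of Medium 1 and 3 of Medium 2. A single library could hold 3 counts at 0.973 to 2.23 CPM, so a change below that level was not detectable. These limits cover counting error only. Most other differentiation markers of the colon were low as well. Of 8 colonocyte markers, 4 were at 0 in every library (CA1, SLC26A3, GUCA2A and CEACAM7) and KRT20 had 180 counts in all. CA2, with 1676 counts over all 60 libraries, alone was tested. Of 6 goblet markers, 4 were at 0, including MUC2 and TFF3, and FCGBP had 116 counts in all. Of 5 enteroendocrine markers, CHGA was at 0, while NEUROD1 had 434 counts in 59 libraries and alone was tested.

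Most markers of cells that the culture should lack were also at or near 0. The fibroblast genes COL1A2, COL3A1 and LUM were at 0, while COL1A1 had 786 counts in all and was lower in Medium 2 by the average over treatments, with a log2 difference of -1.14. The summed level of the 6 fibroblast genes ran from 5.57 to 14.5 CPM in Medium 1 and from 0 to 9.26 CPM in Medium 2. The 5 immune markers, of which CD68 had 138 counts in 51 libraries, summed to at most 3.84 CPM in either medium. The 4 endothelial ones summed to at most 2.23 CPM, and of the erythroid markers ALAS2 had 1 count. The measured levels went with the epithelial label of the cells for 6 of the 8 genes and not for VIL1 and CEACAM5.

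The genes lie on 5 chromosomes in the GRCh38 annotation, and KRT8 and KRT18 are neighbours. KRT8 spans 52897191 to 52949860 of chromosome 12 on the minus strand and KRT18 spans 52948855 to 52952906 on the plus strand, so the annotated spans overlap. KRT19 (41523617 to 41528308) and CLDN7 (7259903 to 7263213) lie on chromosome 17, both on the minus strand. EPCAM and VIL1 lie on chromosome 2, CDH1 on chromosome 16 and CEACAM5 on chromosome 19, all on the plus strand. The shared part, 52948855 to 52949860, lies at the start of both spans in the direction of transcription, away from the transcript ends that were read. Whether the authors' counting used strand is not given in these sources, so any reads from that part are uncertain. How many there were was not tested. Keratins also have processed copies. In the last 400 bases of KRT18, 28.8% of the stretches of 50 bases were also found in 12 named KRT18 copies, against 4.27% for KRT8, 1.71% for KRT19 and 0 for the other 5 genes. The copies that had counts in the table held 80 counts for KRT18P55, 2 for KRT8P41 and 1 for KRT19P2, and adding them to the parent genes changed no call.

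Between the media, KRT8 and CDH1 were higher and KRT19 was lower in Medium 2 when the 6 treatments were averaged, and EPCAM, KRT18 and CLDN7 were not called. This comparison asks what differs between spheroids of Medium 2 and Medium 1, 30 libraries against 30. KRT19, which averaged 391 ± 68.2 CPM in Medium 1 and 335 ± 44 CPM in Medium 2, had a log2 difference of -0.22 ± 0.05 (SE, adjusted p = 0.00034). KRT8 averaged 221 ± 32 and 249 ± 37.6 CPM, a log2 difference of 0.17 ± 0.05 (adjusted p = 0.00635). CDH1 averaged 61.9 ± 15.5 and 74.0 ± 17.6 CPM, a log2 difference of 0.26 ± 0.09 (adjusted p = 0.014). The differences of KRT8 and CDH1 were smaller than the SD of single libraries in either medium, that of KRT19 lay between the SDs of the media, and the ranges of the media overlapped for all 3 genes. They were called in every one of 60 fits that left out a library and in the 8 other settings tried. Without wells B2 and A7 the log2 differences were -0.19 for KRT19, 0.14 for KRT8 and 0.32 for CDH1. In some treatments the group means of the media were close or reversed, which leaving out a library does not show. With hemin and kynurenine, mean KRT19 was 358 CPM in Medium 1 and 360 CPM in Medium 2. Mean KRT8 with butyrate was 235 and 238 CPM. Mean CDH1 with kynurenine was 75.6 and 71.2 CPM, the latter with well A7 at 21.5 CPM.

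The share of called genes was near that of the whole table. Of all tested genes 46.1% were called in this average, 22.8% higher and 23.3% lower, and 3 of the 6 measured genes is a share close to that, so the count says nothing particular to these genes. The median log2 difference of the 6 was 0.03, beside -0.0045 for all tested genes. The intervals of the other 3 genes bounded what could have been missed. EPCAM had a log2 difference of 0.04 with a 95% interval from -0.03 to 0.11, KRT18 one of 0.03 from -0.08 to 0.13, and CLDN7 one of -0.03 from -0.18 to 0.13.

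In untreated spheroids none of the 6 genes was called, while 6.38% of all tested genes were. KRT8 came nearest. Its levels in Medium 1 were 207, 207, 210, 234 and 245 CPM, and in Medium 2 they were 255, 262, 273, 298 and 311 CPM. The groups did not overlap, and the fitted log2 difference was 0.34 ± 0.13 (SE), with an adjusted p of 0.097. Fitting only these 2 groups, in place of all 12, gave a log2 difference of 0.34 with an adjusted p of 0.014, a call that the fit of all 12 groups did not make. The fit of these 2 groups called 1134 of 10195 tested genes, where that of all 12 called 721 of 11298.

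EPCAM in untreated spheroids was at 338, 350, 356, 364 and 389 CPM in Medium 1 and at 385, 391, 415, 428 and 456 CPM in Medium 2. Only the highest Medium 1 library reached into the range of Medium 2, and the log2 difference was 0.21 ± 0.09 (adjusted p = 0.17). KRT19 was at 341, 371, 414, 419 and 423 CPM in Medium 1 and at 304, 327, 339, 352 and 387 CPM in Medium 2, with overlap and a log2 difference of -0.20 ± 0.13 (adjusted p = 0.40). CDH1 was at 62.9, 66.0, 66.0, 76.9 and 84.6 CPM in Medium 1 and at 71.3, 87.4, 88.5, 93.4 and 99.0 CPM in Medium 2. Of the Medium 2 libraries 4 lay above all of Medium 1, and the log2 difference was 0.30 ± 0.22 (adjusted p = 0.49). KRT18 and CLDN7 overlapped widely, with log2 differences of 0.07 and -0.03. At an unadjusted p under 0.05, 2 of the 6 genes passed, KRT8 and EPCAM, beside 19.1% of all tested genes, and DESeq2 called none of the 6.

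**Figure D2:**
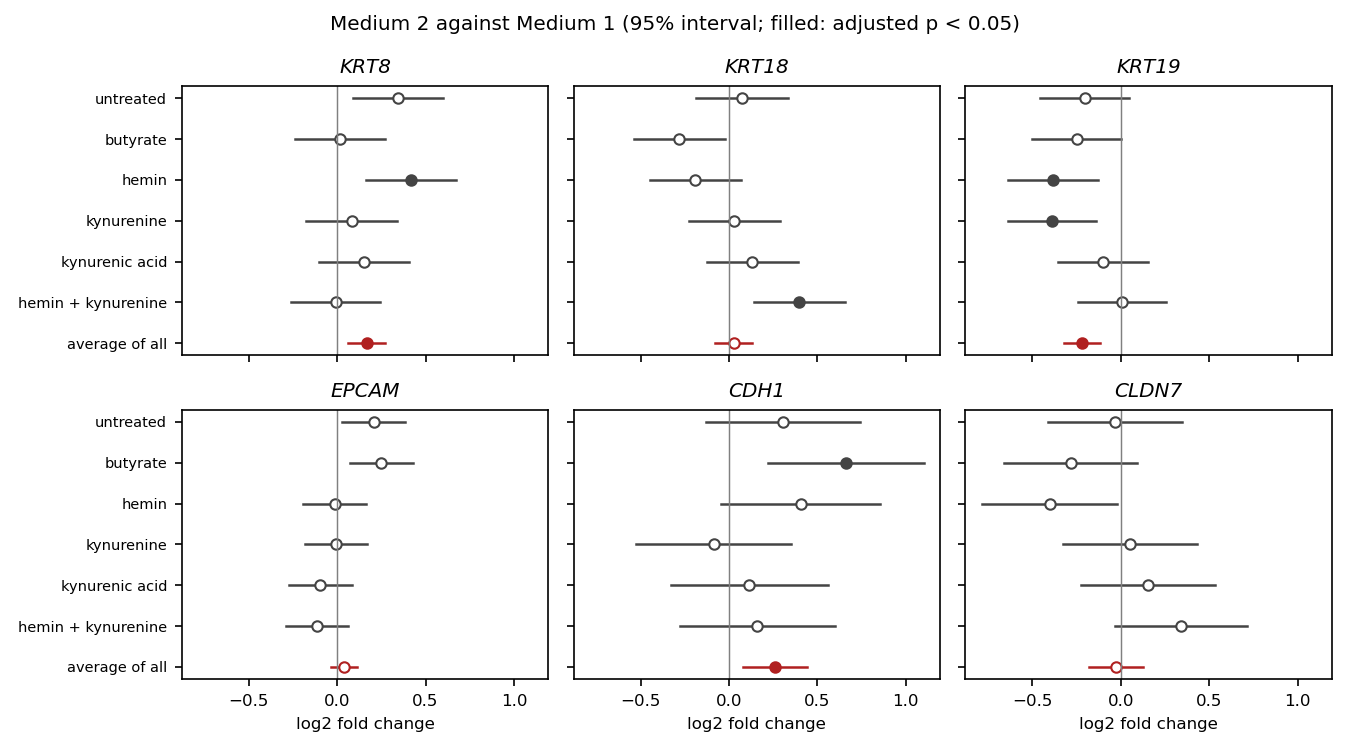
Each panel plots for 1 gene the log2 fold change of Medium 2 against Medium 1 on the horizontal axis, within each treatment and averaged over all (red), with lines for the 95% interval and filled points where the adjusted p was under 0.05. KRT8, KRT19 and CDH1 have filled points for the average, and 5 points within exposures are filled.

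Within the 5 exposures, 5 of 30 tests between the media were called, and the genes differed from exposure to exposure. With hemin, 2 of the 6 genes were called, where 23.9% of all tested genes were. KRT8 was at 165, 180, 184, 219 and 286 CPM in Medium 1 and at 226, 276, 276, 299 and 303 CPM in Medium 2. A single Medium 1 library, well G2 at 286 CPM, stood among those of Medium 2, and the log2 difference was 0.42 ± 0.13 (adjusted p = 0.013). KRT19 was at 374, 396, 405, 431 and 437 CPM in Medium 1 and at 280, 293, 317, 334 and 345 CPM in Medium 2, without overlap, a log2 difference of -0.38 ± 0.13 (adjusted p = 0.021). Library totals ran from 1563688 to 2545123 in the first of these groups and from 1346147 to 1824747 in the second, and at equal depth the KRT8 difference was 0.38 on the log2 scale. Both calls were close to the threshold. The KRT8 call was lost without Medium 1 well D2 (adjusted p = 0.066) and in a fit of the 2 groups alone (0.053), and the KRT19 call at equal depth (0.059) and without wells D2, C6 or D6 (0.051 to 0.056).

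With hemin and kynurenine together, KRT18 was called and the other 5 genes were not, where 16.3% of all tested genes were. KRT18 was at 194, 203, 226, 226 and 229 CPM in Medium 1 and at 239, 249, 253, 324 and 354 CPM in Medium 2. The groups did not overlap, and Medium 2 held a pair of libraries far above the other 3. The log2 difference was 0.40 ± 0.13 (adjusted p = 0.025), and the call was lost without any of wells C4, E4, H7 and A8 (0.059 to 0.13). KRT8, the partner chain, had a log2 difference of -0.01 in the same comparison, with a 95% interval from -0.26 to 0.25.

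With kynurenine, KRT19 was lower in Medium 2, where 8.01% of all tested genes were called. Its levels were 386, 413, 427, 533 and 551 CPM in Medium 1 and 275, 317, 343, 382 and 448 CPM in Medium 2, which overlap in part, with a log2 difference of -0.39 ± 0.13 (adjusted p = 0.042). The call was lost in 4 other settings and in 6 of 10 fits that left out a library (wells B3, D3, G6, H6, A7 and B7), with an adjusted p of 0.054 to 0.16. With butyrate, CDH1 was higher in Medium 2, where 9.89% of all tested genes were called. Its levels were 28.2, 48.6, 53.3, 57 and 68.2 CPM in Medium 1 and 61.3, 76.2, 84.2, 87.0 and 96.8 CPM in Medium 2, with 1 library of each group in the range of the other. The log2 difference was 0.66 ± 0.22 (adjusted p = 0.044). The call was lost in 4 other settings and in 7 of 10 fits that left out a library (wells F1, G1, H1, D5, E5, F5 and G5), with an adjusted p of 0.051 to 0.16.

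EPCAM with butyrate was at 311, 319, 342, 352 and 375 CPM in Medium 1 and at 369, 395, 413, 417 and 427 CPM in Medium 2. The log2 difference of 0.25 ± 0.09 had an adjusted p of 0.056 and was called by DESeq2 (adjusted p = 0.025), which called 1208 of 12089 genes there. CLDN7 with hemin was at 92.2, 111, 118, 128 and 130 CPM in Medium 1 and at 80.0, 86.6, 89.1, 90.1 and 92.7 CPM in Medium 2. The ranges overlapped only between 92.2 and 92.7 CPM. The log2 difference of -0.40 ± 0.19 had an adjusted p of 0.12, or 0.026 in a fit of the 2 groups alone, which called 2126 of 10006 tested genes. With kynurenic acid none of the 6 genes was called between media by edgeR or DESeq2 where 8.56% of all tested genes were called, and 0 had an unadjusted p under 0.05, beside 23.3% of all tested genes.

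Against untreated spheroids of the same medium, no test of an exposure was called for any of the 6 genes. In Medium 1 0 of 30 tests were called, with 2 at an unadjusted p under 0.05 and none by DESeq2, and the share of all tested genes called was 0.00885% with butyrate, 0.133% with hemin, 0.0354% with kynurenine, 0 with kynurenic acid and 0.0266% with hemin and kynurenine. In Medium 2 0 of 30 were called, with 5 at an unadjusted p under 0.05 and 1, with the combination, by DESeq2. The edgeR background was 0 with butyrate, 0 with hemin, 0.0266% with kynurenine, 0.0177% with kynurenic acid and 0.558% with the combination. At an unadjusted p under 0.05 the share of all tested genes was 3.27% to 21.5% in Medium 1 and 3.55% to 13.6% in Medium 2. A count of 0 is near the backgrounds of called genes. The background was not stable for hemin in Medium 1, where 15 genes were called as reported. It was 1 gene with plate row as a term, 225 with no filter and 255 in a fit of the 2 groups alone. DESeq2 called 569 (8.19% of the 6950 genes that its own filter kept), and 755 (6.64%) were called without wells B2 and A7. None of the 6 genes was called there in any of these settings. For the combination in Medium 2 the background was 63 genes as reported, 118 (1.04%) without both wells and 134 by DESeq2 (2.32% of the 5764 genes kept). The 5 comparisons of a medium share the same untreated libraries.

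The largest departures from untreated spheroids were those of CDH1 and KRT8. In Medium 2, KRT8 with hemin and kynurenine was at 172, 213, 213, 222 and 225 CPM, all below the 255 to 311 CPM of the untreated libraries, and the log2 difference was -0.42 ± 0.13. Its adjusted p was 0.11 by edgeR and 0.043 by DESeq2, which adjusted over 5764 genes there and called 2.32% of them. Every library of the combination group in Medium 2, with 2151094 to 2981629 counts, was deeper than every untreated one, with 1617485 to 1934972 counts, and with all libraries thinned to equal depth the log2 difference was -0.41. CDH1 in the same comparison had a log2 difference of -0.48 with a 95% interval from -0.92 to -0.05 (adjusted p = 0.29), and EPCAM one of -0.22 from -0.40 to -0.04 (adjusted p = 0.23). EPCAM with kynurenic acid in Medium 2 had a log2 difference of -0.25 from -0.43 to -0.07 (adjusted p = 0.42).

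In Medium 1, CDH1 with butyrate had a log2 difference of -0.47 with a 95% interval from -0.91 to -0.03 (adjusted p = 0.57), and KRT18 one of 0.29 from 0.03 to 0.55 (adjusted p = 0.54). Over all 60 tests against untreated spheroids, estimates ran from -0.48 to 0.29 on the log2 scale. The SE of a test was 0.09 for EPCAM and 0.22 for CDH1, so that the same difference was harder to see in CDH1. In data simulated with the counts of these libraries, a change between the media was given to a small random draw of all tested genes. Between the untreated groups, which have the same size as the groups here, a log2 change of 0.5 was recovered in 14% of them. A log2 change of 1 was recovered in 66.7%. The drawn genes were not matched in level or spread to the genes described here, so these shares are not theirs.

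**Figure D3:**
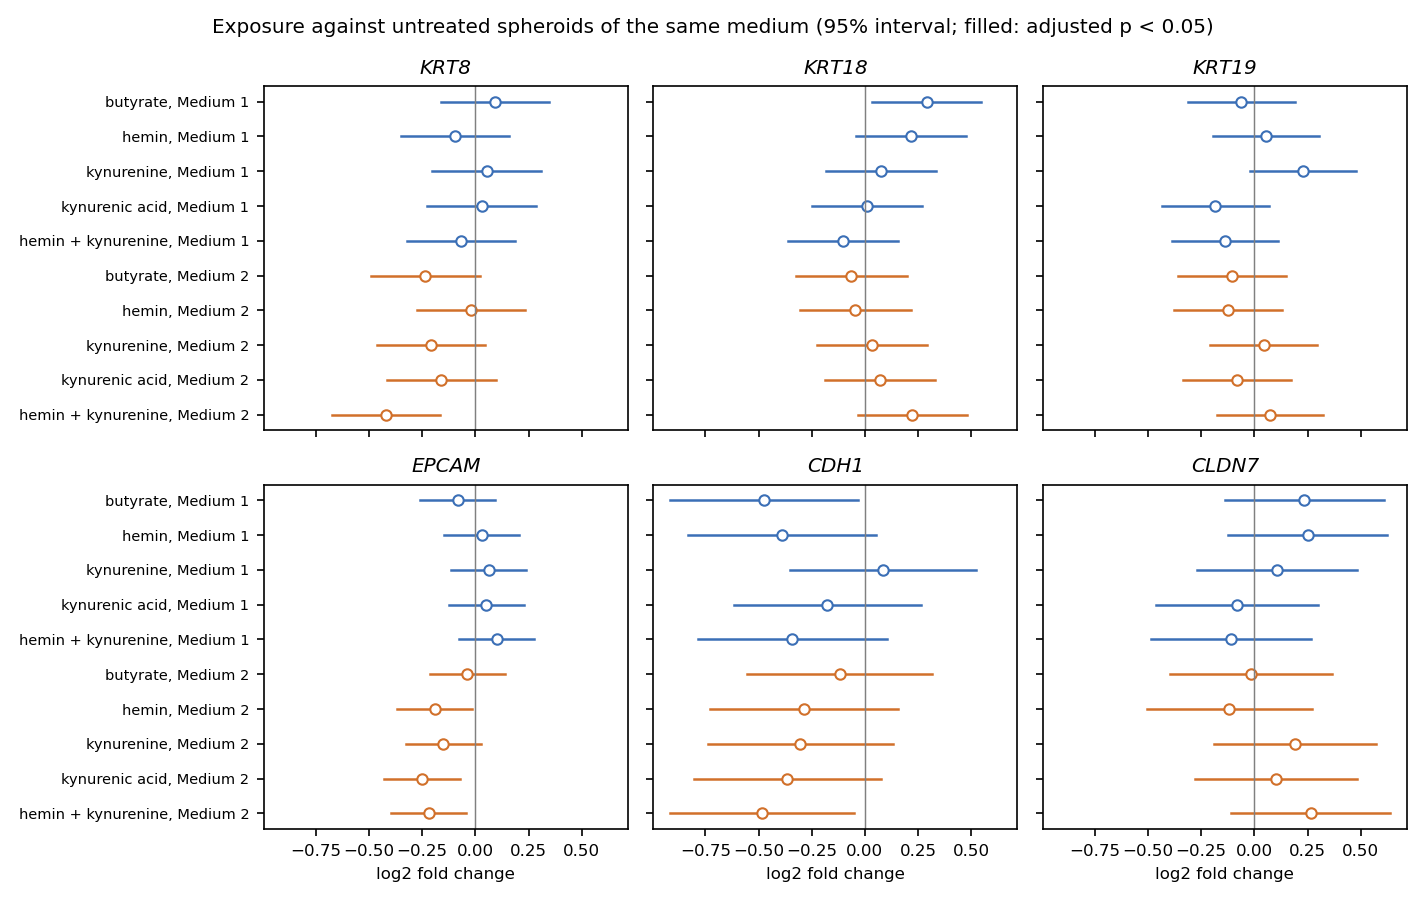
Each panel plots for 1 gene the log2 fold change of an exposure against untreated spheroids of the same medium on the horizontal axis, blue for Medium 1 and orange for Medium 2, with lines for the 95% interval. No point is filled, since no adjusted p was under 0.05, and the intervals of CDH1 and CLDN7 are the widest.

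The difference of an exposure's response between the media was not called for any of these genes, 0 of 30 tests by edgeR. At an unadjusted p under 0.05, 2 of the 30 passed, both for EPCAM, beside 3.7% to 13.3% of all tested genes. The share of all tested genes called was 0 with butyrate, hemin and kynurenic acid, 0.0177% with kynurenine and 0.0266% with the combination. For EPCAM the response in Medium 2 less that in Medium 1 was -0.32 on the log2 scale with hemin and kynurenine, with a 95% interval from -0.57 to -0.07 (adjusted p = 0.47), and -0.30 with kynurenic acid, from -0.55 to -0.05 (adjusted p = 1.0). DESeq2 called none of the 30 either.

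Kynurenic acid and kynurenine, a pair in which the acid is formed from kynurenine by transamination and ring closure, were given at the same dose of 1 µM and over the same days. In the 12 comparisons of the 6 genes over both media none was called by edgeR or DESeq2. Of all tested genes 0.0354% were called in Medium 1 and 0.00885% in Medium 2. At an unadjusted p under 0.05, 1 of the 12 passed, beside 3.74% of all tested genes in Medium 1 and 5.9% in Medium 2. KRT19 in Medium 1 differed most. It was at 318 to 398 CPM with kynurenic acid, with a median of 342 CPM, and at 386 to 551 CPM with kynurenine, with a median of 427 CPM. The log2 difference was -0.41 with a 95% interval from -0.66 to -0.16 and an adjusted p of 1.0, since few genes differed between these groups. The other 11 intervals all held 0 and reached no further than -0.70 and 0.38 on the log2 scale, so that differences of that size remain possible.

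Ratios between keratins in the same library do not depend on how libraries are scaled. The ratio of KRT19 to KRT18, 2 type I chains, was above 1 in every library, and 2 of the 12 tests of either ratio between the media passed. With kynurenine the log2 ratio was 0.77 to 1.00 in Medium 1 and 0.23 to 0.67 in Medium 2, a difference of means of -0.42. With hemin and kynurenine it was 0.56 to 0.89 and 0.26 to 0.49, a difference of -0.39. In both cases the groups did not overlap and the exact permutation test over the 252 splits gave its smallest possible p, 0.0079, or 0.048 after adjustment over 12 tests. Each of these calls was lost without any of 3 libraries (wells H2, B3 and D3, or H7, A8 and B8), in part since fewer libraries allow fewer splits. In untreated spheroids the difference was -0.27 (exact permutation p = 0.016, adjusted 0.063).

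The ratio of KRT8 to its partner KRT18 did not pass between the media in any treatment, and the differences with hemin and with the combination had opposite signs. With hemin the log2 ratio was -0.90 to 0.19 in Medium 1 and -0.03 to 0.48 in Medium 2, a difference of 0.62 (exact permutation p = 0.024, adjusted 0.071). With hemin and kynurenine it was -0.44 to 0.19 and -0.74 to -0.16, a difference of -0.39 (exact permutation p = 0.040, adjusted 0.095). Within Medium 2 the combination group lay at -0.43 ± 0.25 (SD, n = 5) and the untreated group at 0.20 ± 0.23, without overlap. That difference of -0.64 was tested after its values were seen and had an exact permutation p of 0.0079, the smallest possible, or 0.16 after adjustment over 20 tests. Its counterpart in Medium 1 was 0.03, and the difference between the media of -0.66 had an exact permutation p of 0.019, permuting within each medium, or 0.19 after adjustment over 10 tests. Ratios with KRT18 carry the uncertainty of its copies and of any reads from its overlap with KRT8, which lies at the start of both genes.

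**Figure D4:**
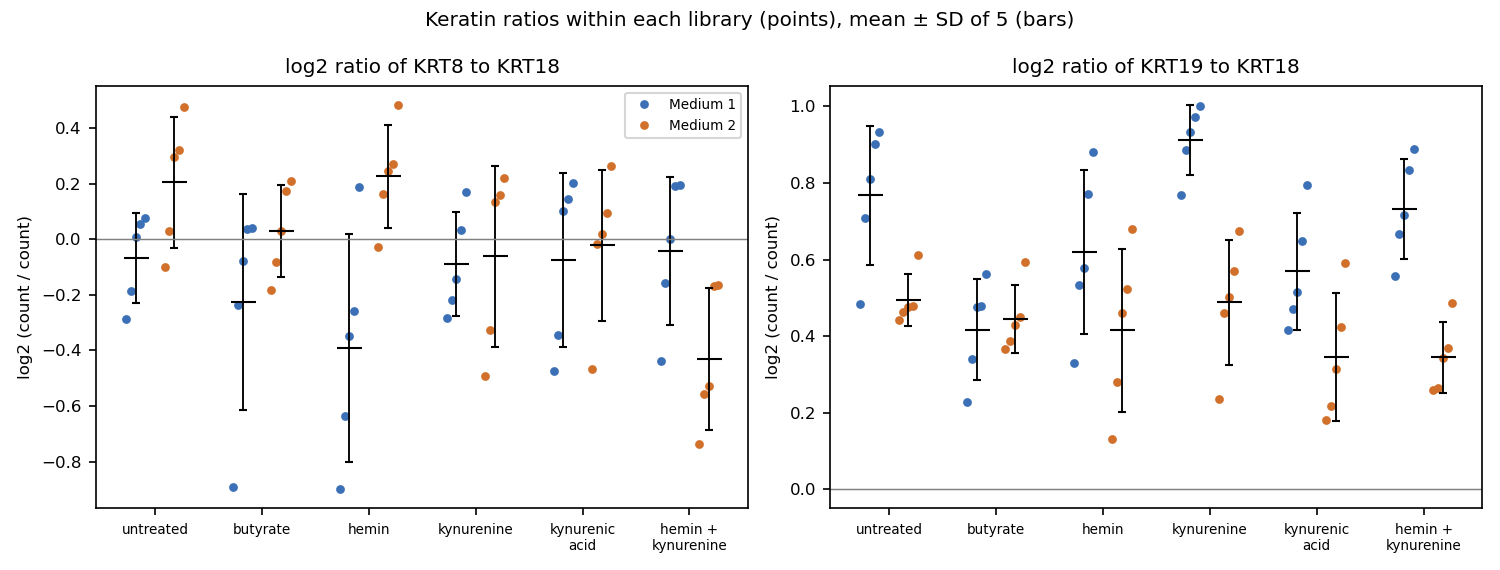
The panels plot the log2 ratio of counts of KRT8 to KRT18 (left) and of KRT19 to KRT18 (right) in each library on the vertical axis against treatment on the horizontal axis, with blue points for Medium 1, orange for Medium 2 and black bars for the mean ± SD of 5. On the right all points lie above 0, and the media do not overlap with kynurenine or with hemin and kynurenine.

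Across libraries of a medium, with each group's mean removed, the genes did not move as 1 block. Of the 30 correlations, 15 pairs in each of the media, 11 passed at an adjusted p under 0.05 by Pearson's r and 6 by Spearman's rho. The permutations treated all libraries of a medium as free, although removing group means takes away some of that freedom. The permutation p-values of correlations are therefore somewhat too small. Passes near the threshold, such as KRT18 with CLDN7 in Medium 1 (adjusted permutation p = 0.045), are uncertain. Without wells B2 and A7, 8 passed by Pearson's r, of which 6 were among the 11, and 4 by rho. KRT18 and KRT19 moved together. In Medium 1 Pearson's r was 0.74 (permutation p = 1e-05, the smallest that 100000 resamples can give, adjusted 0.0003) and Spearman's rho 0.58 (permutation p = 0.001), with r at 0.49 without the 2 libraries farthest from the median. In Medium 2 r was 0.70 (permutation p = 4e-05, adjusted 0.0006) and rho 0.72 (permutation p = 4e-05), with r at 0.64 without the 2 farthest. KRT8 and KRT18, the partner chains, had r of 0.05 in Medium 1 (permutation p = 0.79) and 0.11 in Medium 2 (permutation p = 0.58), with rho of 0.11 and 0.07 (permutation p = 0.57 and 0.70), so that no relation between them was detected.

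CLDN7 went with the type I keratins. In Medium 2 its r with KRT19 was 0.62 (permutation p = 0.00029, adjusted 0.0017) with rho 0.61 (permutation p = 0.00049), and its r with KRT18 was 0.64 (permutation p = 8e-05, adjusted 0.0008) with rho 0.64 (permutation p = 0.00015), and both r were 0.59 without the 2 farthest libraries. In Medium 1 the r of 0.64 with KRT19 (permutation p = 0.00023, rho 0.59, permutation p = 0.00083) was 0.46 without the 2 farthest libraries and 0.38 without butyrate well B2 (adjusted p = 0.13). The r of 0.44 with KRT18 (permutation p = 0.017, rho 0.29, permutation p = 0.12) was 0.17 without the 2 farthest and 0.10 without B2. In Medium 1 the relation with KRT18 thus rests on that library and the one with KRT19 in part. EPCAM, whose protein binds CLDN7, had r with it of 0.06 in Medium 1 (permutation p = 0.76, rho 0.05, permutation p = 0.79). In Medium 2 their r was -0.50 (permutation p = 0.0047, adjusted 0.014) and rho -0.38 (permutation p = 0.039, adjusted 0.12). That r was -0.38 without kynurenine well A7 (adjusted p = 0.13).

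KRT8 and EPCAM moved in opposite directions. In Medium 1 r was -0.57 (permutation p = 0.00072, adjusted 0.0036) and rho -0.55 (permutation p = 0.0019), with r at -0.49 without the 2 farthest libraries. In Medium 2 r was -0.52 (permutation p = 0.0037, adjusted 0.014) and rho -0.39 (permutation p = 0.032, adjusted 0.11), so that rho did not pass. There r was -0.34 without well A7 (adjusted p = 0.19), so the relation rests in part on 1 library. EPCAM and CDH1 had r of 0.50 in Medium 1 (permutation p = 0.0042, adjusted 0.014), with rho 0.39 (permutation p = 0.034, adjusted 0.11). In Medium 2 their r was 0.41 (permutation p = 0.034, adjusted 0.084, rho 0.16, permutation p = 0.40), which was 0.01 without well A7. KRT8 and CDH1 had r of -0.55 in Medium 2 (permutation p = 0.0029, adjusted 0.012) and -0.21 without that well. Their rho was -0.39 (permutation p = 0.034, adjusted 0.11). A pair of relations in Medium 2 passed by Pearson's r only without wells B2 and A7, and neither passed by Spearman's rho. The r of CDH1 with KRT19 was 0.20 with all libraries and 0.61 without those (adjusted permutation p = 0.0043), and that of CDH1 with CLDN7 was -0.12 and 0.46 (adjusted permutation p = 0.049). None of the 6 genes was related to the library total within a medium after adjustment over 12 tests, a check chosen after the values were seen, and the strongest was KRT8 in Medium 1 with r of -0.45 (permutation p = 0.012, adjusted 0.14) and rho of -0.50 (permutation p = 0.0057).

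**Figure D5:**
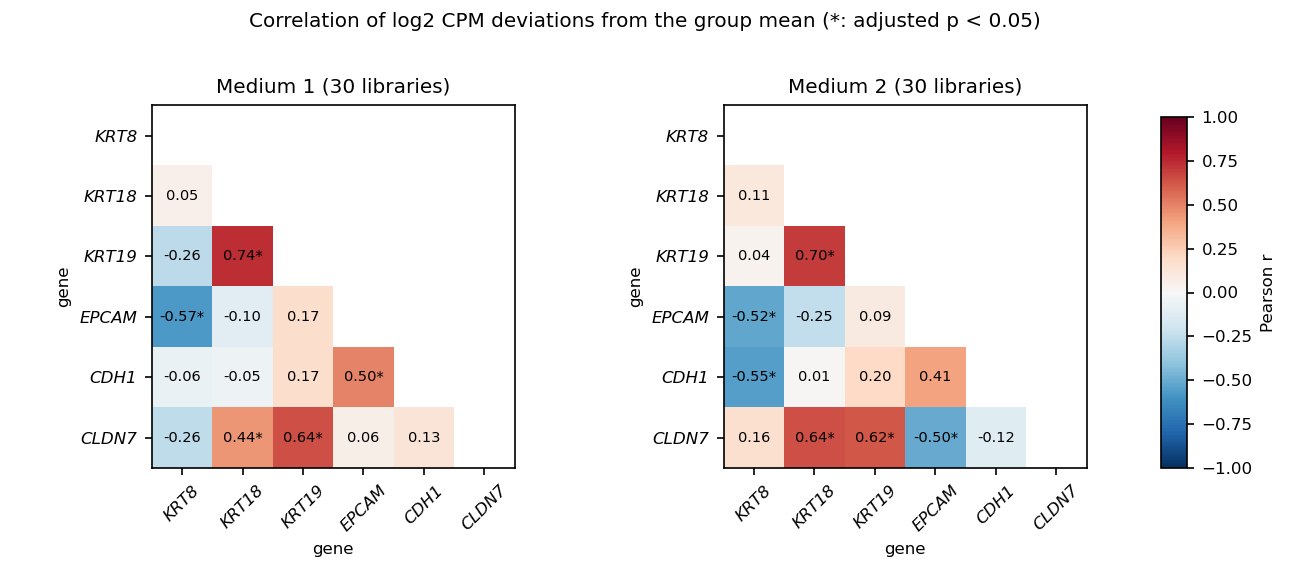
The matrices show Pearson's r between pairs of the 6 genes, named on both axes, for the 30 libraries of Medium 1 (left) and of Medium 2 (right) after each group's mean was removed, with red for positive and blue for negative values and a star for an adjusted p under 0.05. KRT18, KRT19 and CLDN7 are positive with each other in both, and KRT8 with EPCAM is negative in both.

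The genes with patterns most like each of the 6 were taken from 8740 tested genes with at least 10 CPM, by the smaller of the r values of the media over 30 libraries each, with group means kept. These r values are descriptions, and plate position and library totals, which differ between libraries, were not adjusted for beyond the scaling. For KRT18 they were RPL8 (0.88 in Medium 1 and 0.82 in Medium 2), which encodes a ribosomal protein, ATF4 (0.85 and 0.81), a transcription factor of the amino acid and stress response, and RPS4X (0.81 and 0.81), another ribosomal protein. For KRT19 they included PLP2 (0.83 and 0.85) and HLA-C (0.83 and 0.81), a class I antigen-presenting molecule whose count is uncertain because related genes have near-identical sequences. For CDH1 they were SEC61G (0.90 and 0.87), a subunit of the translocon, KITLG (0.87 and 0.90), the ligand of the KIT receptor, and EIF4A3 (0.85 and 0.89), an exon junction helicase.

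Likeness was weaker for the other 3 genes. For KRT8 the nearest included PSME1 (0.70 and 0.73) and ANXA11 (0.75 and 0.69). For CLDN7 they were PYGL (0.75 and 0.71), PKP3 (0.75 and 0.71), which encodes a desmosomal plakophilin, and GPR107 (0.71 and 0.74). For EPCAM they were IPO7 (0.73 and 0.68), IGF2R (0.66 and 0.78) and FAM98B (0.65 and 0.65). No list of 3 nearest genes held another of the 8 genes.

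Genes of epithelial structure were also counted from fixed lists, 81 measured genes in 9 lists, which include CLDN7 again as a partner of EPCAM. Between untreated spheroids of the media 2 of the 81 were called, 2.5%, beside 6.38% of all tested genes. In the average over treatments 45 of the 81 were called, 16 higher and 29 lower in Medium 2, or 55.6% beside 46.1% of all tested genes. Between the media within an exposure, 21 of the 81 were called with hemin (25.9%), 12 with hemin and kynurenine (14.8%), 7 with butyrate (8.6%), 4 with kynurenic acid (4.9%) and 3 with kynurenine (3.7%), beside 23.9%, 16.3%, 9.89%, 8.56% and 8.01% of all tested genes. The members of these lists were chosen with earlier results of these data known, and the counts are a description.

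Among other keratins, 4 of 18 genes were measured, and in the average 1 was higher and 2 were lower in Medium 2. KRT10, a type I keratin of stratified epithelia, was at 151 ± 14.7 CPM in Medium 1 and 170 ± 19.4 CPM in Medium 2 (SD, n = 30), a log2 difference of 0.17. KRT15, a keratin of basal cells, fell by 0.68 on the log2 scale from a low level, 8.38 to 5.27 CPM, and KRT222 by 0.49. The list's median log2 difference was -0.16, beside -0.0045 for all genes.

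Of 17 measured tight junction genes 3 were higher and 8 lower in the average, with a median log2 difference of -0.12. PARD6B, a polarity protein, was the 1 called without treatment, at 22.7 ± 4.56 CPM in Medium 1 and 35.2 ± 7.20 CPM in Medium 2 (SD, n = 5), a log2 difference of 0.63 (adjusted p = 0.035), a call lost with upper-quartile scaling, with no filter and without any of wells A1, B1, C1, G4, H4 and C5 (0.053 to 0.11). The scaffold PATJ, listed under its older symbol INADL, fell by 0.63 on the log2 scale in the average and cingulin (CGN) by 0.67. CLDN15, a pore-forming claudin, fell by 1.16 from a low level, 6.70 to 2.98 CPM. Of 12 measured adherens junction genes 4 were higher and 3 lower, with a median of 0.08. Afadin (MLLT4 in the table) was lower without treatment, at 107 ± 17.8 CPM in Medium 1 and 77.0 ± 6.04 CPM in Medium 2, a log2 difference of -0.47 (adjusted p = 0.016, lost without wells C1, G4 or B5 at 0.052 to 0.10). In the average, plakoglobin (JUP) rose by 0.50 and LIMA1, which links cadherin complexes to actin, by 0.44, while nectin-2 (PVRL2) fell by 0.40. PVRL3, or nectin-3, was the only gene of the 9 lists called in an exposure against untreated spheroids. With hemin and kynurenine in Medium 2 it was at 156 ± 24.7 CPM against 224 ± 31.3 CPM untreated, a log2 difference of -0.52 (adjusted p = 0.043). That call was lost with no filter, with plate row, in a fit of the 2 groups alone and without any of 7 of the 10 libraries (H4, A5, C5, H7, B8, C8 and D8), at 0.052 to 0.22.

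Of 11 measured desmosome and cytolinker genes 1 was higher and 4 were lower, with a median of -0.11. PKP4, an armadillo protein of junctions, fell by 0.59, and the plakin linkers PPL and EVPL, which tie keratin filaments to desmosomes, by 0.50 and 0.53, while PERP, a desmosomal membrane protein, rose by 0.11. The call of EVPL was lost at equal depth (0.090), and that of PERP at equal depth (0.081), with upper-quartile scaling (0.14) and with no filter (0.059). Of 11 measured brush border genes, the company of VIL1, 1 was higher and 6 were lower, with a median of -0.12. The actin regulators EPS8L2 and BAIAP2L1 fell by 0.47 and 0.26 and MISP by 0.56, and the actin bundler PLS3 rose by 0.18. Of 10 measured EPCAM partners and proteases, CLDN7 among them, 2 were higher and 2 lower. SPINT2, an inhibitor of membrane serine proteases, rose by 0.35, while ADAM17, a sheddase, fell by 0.28. PRSS8, a membrane serine protease, fell by 0.90 from a low level, 3.47 to 1.93 CPM. A single library holds 3 counts at 0.973 to 2.23 CPM, so PRSS8 was near the floor. Of 5 listed CEACAM relatives 1 was measured and it was not called.

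Of 10 measured epithelial transcription and splicing factors 4 were higher and 2 lower in the average, with a median of 0.06. KLF4 rose by 0.44, OVOL1 by 0.36 and ELF3 by 0.23, and the splicing factor ESRP1 fell by 0.35. Of 14 listed repressors and mesenchymal genes 5 were measured, and 2 were lower and none higher in Medium 2, with a median of -0.15. SNAI1 fell by 0.25, from 14.3 ± 3.33 to 12 ± 2.14 CPM (SD, n = 30, adjusted p = 0.016), and ZEB1 by 0.44, from 8.80 ± 3.76 to 6.57 ± 3.34 CPM (adjusted p = 0.026). The SNAI1 call was lost with no filter (0.059), and the ZEB1 call at equal depth (0.078) and without well G3 (0.057) or B4 (0.053). Both are low beside CDH1 at 61.9 and 74.0 CPM in the respective media, and no relation of either to CDH1 was tested.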

How the data were processed

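Gene counts from 60 QuantSeq 3' libraries with molecular identifiers, made from 12 groups of 5 HCT116 spheroid samples, were used as the authors deposited them. The deposited table holds estimated counts per gene, and the tools in the submitters' processing notes are Salmon 1.5.2, STAR, UMI-tools 1.1.2, FastQC 0.11.9 and cutadapt 3.4, with the GRCh38 genome. Strand setting, annotation and the sharing of reads between copies are not given in these sources. The labels name the molecule as cytoplasmic RNA, and a treatment entry that reads the same for all samples was not used. Of the estimated counts 10.1% were not whole, and all were rounded here.

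Genes were filtered with filterByExpr (minimum count 10, minimum total 15) and fitted with edgeR 4.0.16 in R 4.3.3, by TMM scaling and 1 quasi-likelihood model with a mean per group and 48 residual degrees of freedom. It was tested on simulated data, and gave 24 contrasts. Errors of log2 differences are SE, others SD. DESeq2 1.42.0, other scalings, no filter, plate row, equal depth, leaving out libraries, adding keratin copies and fitting only the groups compared were the alternatives. Ratios were tested by exact permutation and correlations with 100000 resamples, on log2 CPM with a prior count of 2. Tails were searched in GENCODE transcripts.

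All 8 genes were described whatever their result. From each list, up to 4 called genes were named by p between untreated groups and then in the average, and any called with an exposure. The genes, the lists and the libraries left out as a pair (wells B2 and A7) were chosen with earlier results of these data known. Listed genes were matched by symbol or older symbol, and HBB, HBA1 and HBA2 were not analysed here. A few genes that these rules select are not reported here.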

Additional observations from a re-analysis of the deposited data

Results flagged for a closer look

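Of 72 sets of 5 libraries, 6 genes in each of 12 groups, 4 held a library that lay far from the other 4 by Dixon's criterion, and chance alone gives about 1 in 20. With butyrate in Medium 1, KRT8 was at 289 CPM in well G1, where the other 4 libraries had 213 to 232 CPM. In the same group KRT19 was at 582 CPM in well B2 against 290.0 to 357 CPM, and CLDN7 at 185 CPM in that well against 89.6 to 104 CPM. With hemin and kynurenine in Medium 2, KRT8 was at 172 CPM in well D8 against 213 to 225 CPM. Of these libraries B2 was left out as an alternative for every comparison, and each library was left out in turn.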

How the results depend on the processing

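The 3 calls in the average over treatments held in all fits tried, and no called difference changed sign. Between untreated groups 1 gene was called instead of 0 when only those groups were fitted. Within exposures the count of 5 calls was 3 with plate row as a term, 2 at equal depth and 3 when only the groups compared were fitted, and ran from 3 to 6 over fits that left out a library. Against untreated spheroids in Medium 2, DESeq2 called 1 instead of 0. The 2 keratin ratio calls ran from 0 to 4 when a library was left out. Over all genes, fitting only the groups compared called 1134 genes between untreated groups instead of 721, 611 with butyrate instead of 1117 and 337 with kynurenine instead of 905, and plate row called 728 with butyrate. With hemin in Medium 1 against untreated, 755 genes were called without wells B2 and A7 and 1 with plate row, instead of 15. Upper-quartile scaling changed the split with hemin from 1422 higher and 1283 lower to 1118 and 1592, and with kynurenic acid from 486 and 481 to 371 and 562. No paired analysis was possible because the columns carry no replicate number, so the replicate block was not run, and fitting only the groups compared does not apply to the average over all groups. Depth limits VIL1 and CEACAM5, which could not be tested. The causes of these changes were not tested.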
